A study of Mus musculus with 19 samples.

Results

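Plasmacytoid dendritic cells (pDC) of the injury site were chosen by their own transcripts from 19 droplet single cell RNA libraries, as cells with at least 2 unique molecular identifiers (UMIs, each standing for 1 captured transcript) of Siglech, at least 1 UMI of Ccr9, Cox6a2, Klk1 or Ly6d, and none of the stromal gene Pdgfra. Barcodes with fewer than 500 genes, or with mitochondrial UMIs above 25%, were not considered, and 229 of 39541 cells met the rule. They numbered 3 of 3561 cells at day 0, 37 of 5795 at day 3, 139 of 13414 at day 7, 2 of 5345 at day 21 and 48 of 11426 with the peptide p7N3.

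The study follows heterotopic ossification, the formation of bone in soft tissue, in mice given a dorsal burn and a cut of the Achilles tendon, and the tissue was the tenotomy site. There were 4 libraries of day 0, 3 of day 3, 4 of day 7, 4 of day 21 and 4 with p7N3, a CD47-activating peptide given daily at 10 mg/kg into the peritoneum, which the study compared with mice given PBS. Wild-type mice were male C57BL/6J young adults by the study's methods. Every library carries a label that names both C57 and LysmCre/Tgfb1fx/fx mice, in the latter of which a Cre recombinase driven by the lysozyme M promoter removes Tgfb1 from myeloid cells, so the genotype of a single library is not known here. The labels describe the injury for day 0 as well and name no vehicle for day 7. The labels give no harvest day for p7N3 replicate 4, and the study's legend to its p7N3 single cell data, which speaks of harvest at 1 week, was followed. The study describes its single cell replicates as a measure of the variation between mice, but neither it nor the labels say which mouse or mice a library came from, so that p-values measure the spread between these libraries.

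Plasmacytoid dendritic cells are round, antibody-producing-cell-like members of the dendritic cell family that sense viral and self nucleic acids in endosomes through TLR7 and TLR9 and can release large amounts of type I interferon. Their identity is held by the E-box binding factor TCF4 (also called E2-2) with IRF8, RUNX2, SPIB and BCL11A, while ID2 and BATF3 mark the conventional dendritic cells that present antigen to T cells. Siglec-H, CCR9 and BST2 are surface proteins by which mouse plasmacytoid cells are recognised.

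The promoters of 3 of these surface genes are shown because each holds the E-box CAGGTG, a letter sequence that TCF4 is known to bind. Siglech and Ccr9 were part of the rule, so that their presence together in the cells follows in part from the selection. Each sequence runs 5′ to 3′ from 250 bases before to 50 bases after the start of the RefSeq gene on GRCm38.p6, with CAGGTG (or CACCTG, the same letters on the other strand) in capitals and, for Bst2, also the interferon response element, searched as GAAA and a second GAAA with any 2 bases between them.
Siglech, chr7:55767934-55768233, plus strand: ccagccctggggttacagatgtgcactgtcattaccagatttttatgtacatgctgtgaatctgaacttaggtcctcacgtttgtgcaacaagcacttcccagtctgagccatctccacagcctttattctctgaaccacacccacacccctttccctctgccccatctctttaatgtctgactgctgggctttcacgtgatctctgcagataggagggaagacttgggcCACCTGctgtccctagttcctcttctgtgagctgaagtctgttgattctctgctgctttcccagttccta
Ccr9, chr9:123766961-123767260, plus strand: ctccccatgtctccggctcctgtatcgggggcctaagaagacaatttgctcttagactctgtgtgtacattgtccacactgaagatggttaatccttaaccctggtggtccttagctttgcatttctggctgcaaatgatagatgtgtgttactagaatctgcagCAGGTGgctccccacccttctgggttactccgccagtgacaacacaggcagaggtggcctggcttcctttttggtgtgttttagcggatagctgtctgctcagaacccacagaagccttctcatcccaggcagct
Bst2, chr8:71537423-71537722, minus strand: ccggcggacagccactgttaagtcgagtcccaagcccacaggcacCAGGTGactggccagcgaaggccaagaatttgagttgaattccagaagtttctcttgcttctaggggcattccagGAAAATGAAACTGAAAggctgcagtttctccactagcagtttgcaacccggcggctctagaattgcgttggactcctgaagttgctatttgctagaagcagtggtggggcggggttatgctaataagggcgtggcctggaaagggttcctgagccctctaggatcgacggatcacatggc
Both strands were searched. CAGGTG was in 20.21% of 32851 such promoters and the interferon response element in 3.443%, and the 2 matches of Bst2 overlap each other. For Irf8 there were 2 RefSeq starts, of which the first had no CAGGTG and the second had 1. A match of these letters is a description and does not show that a factor was bound.

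The cells that met the rule had a median of 7 UMIs of Siglech (2 to 21) and a median of 4854 UMIs in all (2623 to 35868). Of the second markers, the chemokine receptor gene Ccr9 was found in 91.3% of members, the cytochrome oxidase subunit gene Cox6a2 in 91.3%, Ly6d in 78.2% and the kallikrein gene Klk1 in 54.6%. All 4 were found in 90 members, 3 in 97, 2 in 29 and a single one in 13. These genes chose the cells and were not tested. Klk1 belongs to a family of near-identical kallikrein genes, so that its UMIs may include those of relatives.

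The label was checked with Bst2 and Irf8, its 2 markers that the rule did not use. Bst2 was found in all 139 cells of day 7 and all 48 with p7N3, at 3503 ± 131 CPM (the gene's UMIs per 1000000 UMIs of the cells in question, SD, n = 4 libraries) at day 7. Macrophages of these libraries (Siglech 0, Flt3 0, at least 2 UMIs of Csf1r and 1 of Adgre1) had 344 ± 109 CPM. Irf8 was at 3232 ± 440 CPM in plasmacytoid cells of day 7 and at 141 ± 9.15 CPM in macrophages. B cells and plasma cells share some of these genes. Of 8 of their marker genes, only Cd79b (33 UMIs) had UMIs in the plasmacytoid cells of day 7, and Cd79a, Ms4a1, Pax5 and Jchain were at 0. At day 0 the label rested on little, since 2 of the 3 cells had just 2 UMIs of Siglech and 1 second marker, and Bst2 was found in 2 of the 3, Irf8 in 1 and Tcf4 in none. Those 2 cells, both of replicate 1, held 437 UMIs of the 10 macrophage genes (48920 CPM, beside 46933 CPM in the macrophages of that library) and 5 UMIs of the 4 label markers, so that their transcripts go against the label. The matrix of replicate 1 was deposited unfiltered, with 737280 barcodes beside 614 to 3786 in the other libraries, so that its cells were picked by the limits on genes and mitochondrial UMIs alone. The third cell, of replicate 2, held 34 UMIs of the label markers and 6 of the macrophage genes.

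Cells near the limit of the rule carried fewer pDC transcripts than most members. Among days 3, 7 and p7N3, 15 cells just outside, with 1 UMI of Siglech and a second marker, held 135 CPM of Tcf4, 227 of Irf8, 644 of Bst2 and 2305 of the macrophage gene C1qa. The 16 members just inside, with 2 UMIs of Siglech, held 608 CPM of Tcf4, 1457 of Irf8, 1491 of Bst2 and 1645 of C1qa. The 208 members with 3 or more held 838, 3031, 3380 and 254 CPM of these genes in the same order. A further 8 cells had 2 or more UMIs of Siglech and no second marker, with 462 CPM of Tcf4, 503 of Irf8, 1528 of Bst2 and 1267 of C1qa. Their Bst2 was at the level of the members just inside, and their Irf8 lay below it.

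Many members also carried transcripts of other cells. No doublets were removed, and free RNA in the droplets can add UMIs to a cell. The part of either was not tested. At least 2 UMIs of C1qa, C1qb, Col1a1, Col3a1, Cd3e or Cd79a were found in 37 of 37 members at day 3, 106 of 139 at day 7 and 33 of 48 with p7N3, and at least 20 in 4, 7 and 2. The p7N3 replicate 4 library stood apart: it had 6 members, of which 1 had 35868 UMIs, and its stromal marker genes summed to 29470 CPM against 1383 to 3789 CPM in the other p7N3 libraries. It enters the shares below, and with fewer than 10 members it was left out of the comparisons of expression. Pairs of libraries shared at most 22 cell barcodes (median 4 over 171 pairs), and no barcode met the rule in both libraries of a pair.

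The share of plasmacytoid dendritic cells among all cells was near the limit of detection before injury, higher at days 3 and 7 and near the limit again at day 21. At day 0 it was 0.199% (2 of 1003 cells, those with macrophage transcripts) and 0.175% (1 of 571) in replicates 1 and 2, and no such cell was found among 1111 and 876 cells in replicates 3 and 4, which allows shares of up to 0.270% and 0.342%. At day 3 it was 0.610% (12 of 1967), 0.842% (18 of 2137) and 0.414% (7 of 1691). At day 7 it was 0.919% (30 of 3265, exact Clopper-Pearson 95% interval 0.621 to 1.31%), 1.20% (43 of 3578, 0.871 to 1.62%), 1.28% (47 of 3668, 0.943 to 1.70%) and 0.654% (19 of 2903, 0.394 to 1.02%) in replicates 1 to 4. All libraries of days 3 and 7 lay above all of day 0, and those of days 3 and 7 overlapped each other. At day 21, 2 cells were found among 907 in replicate 2 (0.221%), and none among 1537, 945 and 1956 in the others, which allows up to 0.195%, 0.317% and 0.153%. The limits for libraries without such a cell are 3 counts of the cells in the library, which is tighter than the upper end of the exact interval used for the others (0.331% and 0.420% at day 0, and 0.240%, 0.390% and 0.188% at day 21). The intervals and limits cover counting error only.

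With p7N3 the share was lower than at day 7 without it. It was 0.435% (12 of 2759, 0.225 to 0.759%), 0.556% (20 of 3599, 0.340 to 0.857%), 0.394% (10 of 2541, 0.189 to 0.723%) and 0.237% (6 of 2527, 0.0872 to 0.516%) in replicates 1 to 4. The highest p7N3 library lay below the lowest of day 7. The means were 0.405 ± 0.131% and 1.01 ± 0.286% (SD, n = 4 each), a ratio of 0.400 (exact two-sided permutation p = 0.02857, Benjamini-Hochberg adjusted p = 0.05714 over 6 comparisons of shares). The smallest p that 4 against 4 libraries can give is 0.02857, and the adjusted value did not pass 0.05.

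Measured against other immune cells the difference was in the same direction. Per 100 conventional dendritic cells (Siglech 0, Pdgfra 0, Flt3 at least 1 and a UMI of Xcr1, Clec9a, Cd209a or Ccr7) there were 47.8 ± 30.2 plasmacytoid cells at day 7 (22.9 to 85.5) and 13.6 ± 3.07 with p7N3 (10.5 to 17.5). Conventional dendritic cells made up 2.56 ± 1.02% of cells at day 7 and 2.94 ± 0.589% with p7N3, and macrophages 19.4 ± 2.84% and 19.5 ± 2.22%. Of cells with a UMI of the leukocyte gene Ptprc, plasmacytoid cells were 2.55 ± 1.07% at day 7 and 0.838 ± 0.331% with p7N3, again without overlap. Replicates 1 to 3 and replicate 4 were deposited separately. Within replicates 1 to 3 the means were 1.13% at day 7 and 0.461% with p7N3 (exact permutation p = 0.1000, the smallest that 3 against 3 can give), and replicate 4 gave 0.654% and 0.237%. Where members with 2 UMIs of another cell type's gene were left out, which removed 106 of 139 and 33 of 48, the shares were 0.239% and 0.132% (exact permutation p = 0.1429).

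**Figure D1:**
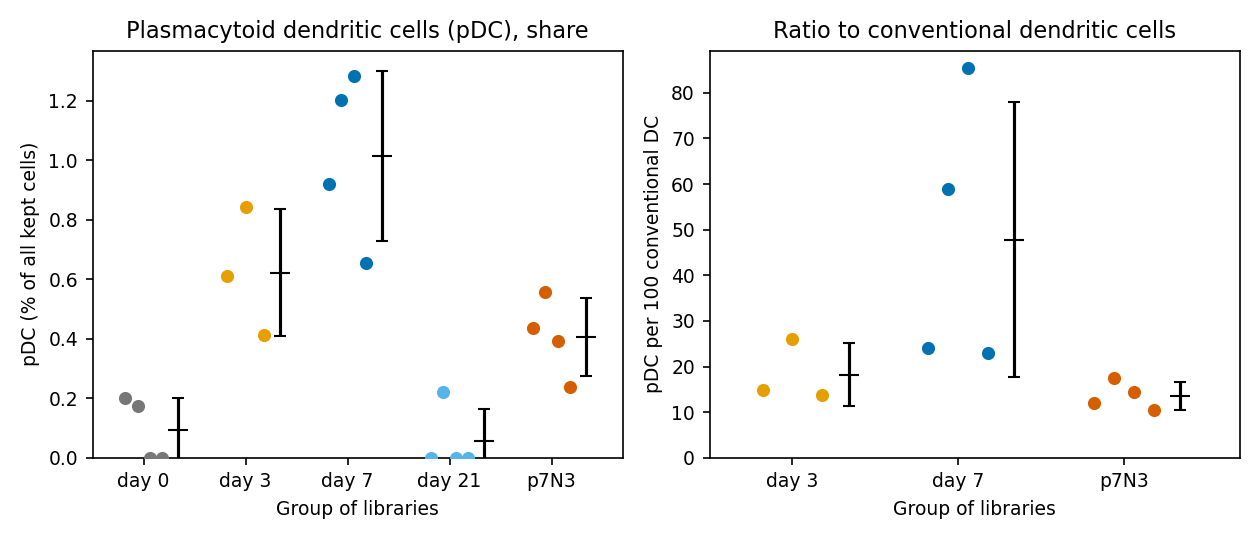
Share of plasmacytoid dendritic cells (pDC) among all kept cells in percent (left, 5 groups) and their number per 100 conventional dendritic cells (right, days 3 and 7 and p7N3). Each point is 1 library and the black bar gives the mean with its SD, drawn down to 0 at most. The 4 p7N3 libraries (0.237 to 0.556%) sit below the 4 of day 7 (0.654 to 1.28%).

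Over the course of injury, the mean share of 1.01% at day 7 was 10.8 times that of day 0 (0.0936 ± 0.109%, n = 4; exact permutation p = 0.02857, adjusted p = 0.05714), with no overlap. That ratio rests on 3 cells of day 0, 2 of which go against the label. With Siglech at least 3, which drops both, the means were 0.942% and 0.0438%, and without day 0 replicate 1 the day 0 mean was 0.0584%. Day 3, at 0.622 ± 0.214% (n = 3), did not overlap with day 0 either (exact permutation p = 0.05714, the smallest possible for 3 against 4, adjusted p = 0.08571). As a share of all cells the difference between days 3 and 7 was within the spread of the libraries (exact permutation p = 0.1143, adjusted p = 0.1371). Day 21 lay below day 7 in every library (0.0551 ± 0.110%, n = 4; exact permutation p = 0.02857, adjusted p = 0.05714) and overlapped with day 0 (exact permutation p = 1.000). The steps depended on the denominator. Among cells with a UMI of Ptprc, plasmacytoid cells were 0.558 ± 0.751% at day 0 (0 to 1.59%) and 0.731 ± 0.186% at day 3 (0.524 to 0.884%; exact permutation p = 0.8000). The day 0 value rests on 2 cells, 1 of 155 in replicate 1, with macrophage transcripts, and 1 of 63 in replicate 2, and is too thin to show a step among leukocytes or its absence. Day 7, at 2.55 ± 1.07% (1.46 to 3.70%), overlapped with day 0 on this scale (exact permutation p = 0.05714) and not with day 3 (exact permutation p = 0.05714, the smallest possible, adjusted p = 0.08571). Per 100 macrophages, a scale chosen after seeing the data as was that of conventional dendritic cells, there were 1.56 ± 1.81 plasmacytoid cells at day 0, 1.20 ± 0.378 at day 3 and 5.47 ± 2.29 at day 7, and days 3 and 7 did not overlap (exact permutation p = 0.05714). Per 100 conventional dendritic cells there were 19.6 ± 24.3 at day 0, 18.2 ± 6.84 at day 3 and 47.8 ± 30.2 at day 7, with overlap between all 3 (exact permutation p = 0.2286 for day 7 against day 0). Day 0 had 17 conventional dendritic cells and 183 macrophages in all. Day 0 libraries were the shallowest, with 571 to 1111 cells and UMI totals of 3019467 to 5383855. Day 3 totals ranged from 25243407 to 33704901 UMIs and those of day 7 from 33235893 to 39870492. Day 21 libraries had totals between 11064153 and 29233343, and p7N3 libraries between 25386054 and 35450868. Thinning every cell to 2000 UMIs left the shares of p7N3 and day 7 at 0.375% and 0.979%. The minimum of Siglech was lowered from 2 UMIs to 1 for the thinned cells, so these shares are not those of the rule itself.

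Plasmacytoid dendritic cells were next described by the genes they express, at day 7 and with p7N3 together (187 cells; cells were compared as sums per library where at least 10 were present). The genes whose share of cells with a UMI most exceeded that in conventional dendritic cells and macrophages included Atp1b1, Ly6c2, Ptprcap and Lag3. Atp1b1, a subunit of the sodium pump (chr1:164437109-164458355), was found in 90.4% of plasmacytoid cells, 3.70% of conventional dendritic cells and 1.25% of macrophages. Ly6c2, a surface antigen shared with inflammatory monocytes, was found in 89.3%, 10.1% and 7.76%, and part of its UMIs may come from the near-identical Ly6c1. Ptprcap, a partner of CD45, was found in 80.7%, 9.47% and 1.08%, and also in 60.0% of 15 B cells (at least 2 UMIs of Cd79a and 1 of Cd79b). Lag3, an inhibitory receptor that binds MHC class II, was found in 80.2%, 9.91% and 6.01%. The plasmacytoid cells were shallower than the cells they were set against, with a median of 4508 UMIs against 6648 in conventional dendritic cells and 6089 in macrophages. After thinning to 2000 UMIs, which left no cell out, the shares in plasmacytoid cells were 67.9%, 77.5%, 54.0% and 61.0% in the same order of genes, and those in conventional dendritic cells were 1.33%, 4.59%, 2.96% and 3.55%.

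**Figure D2:**
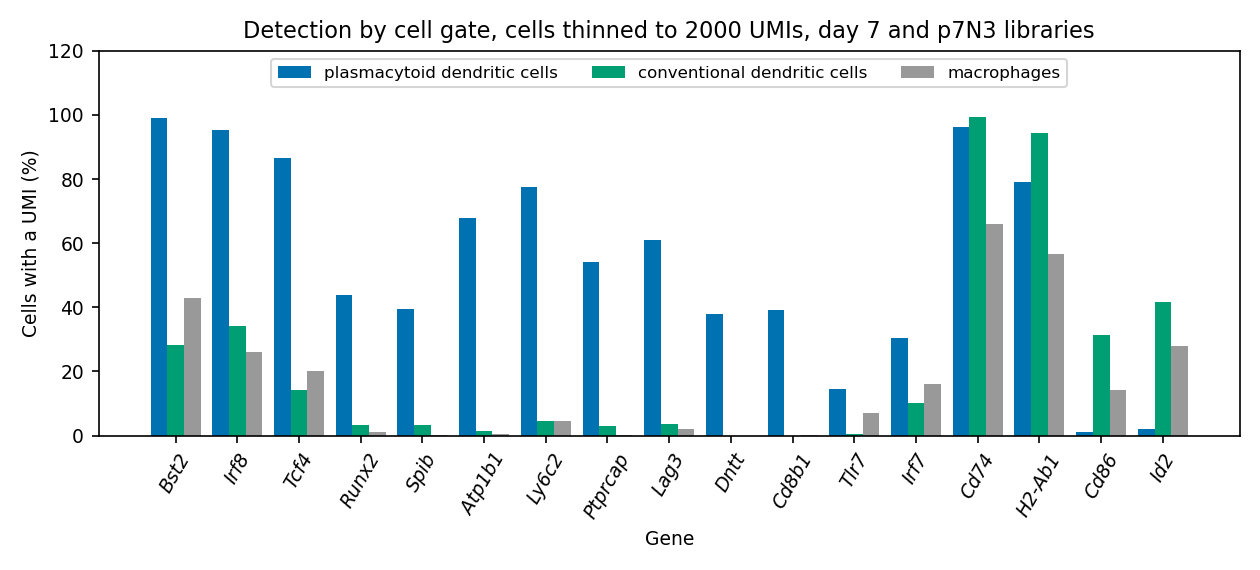
Share of cells with at least 1 UMI (%) of 17 genes in plasmacytoid dendritic cells, conventional dendritic cells and macrophages of day 7 and p7N3, every cell thinned to 2000 UMIs. Irf8 was found in 95.2% of plasmacytoid cells and Id2 in 2.14%, and Id2 was found in 41.6% of conventional dendritic cells.

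Few as they were, plasmacytoid cells held most of the transcripts of some genes at the injury site. At day 7, when they made up 1.01% of cells, they held 92.6 ± 4.06% of all UMIs of Dntt (SD, n = 4), which codes for the template-free DNA polymerase of early lymphocytes, and 86.2 ± 7.10% of those of Mzb1, an endoplasmic reticulum chaperone of antibody-secreting cells. They held 73.2 ± 6.89% of Cd8b1 and 72.3 ± 5.32% of Cd8a, the genes of the CD8 coreceptor, while in the same cells Cd3e, Nkg7, Ncr1, Klrb1c and Il2rb were at 0 and Cd3d, Cd3g and Gzma had 1 UMI each. Cd300c was at 77.2 ± 3.00% and Pacsin1, a membrane-bending adaptor, at 73.7 ± 6.55%. Of the regulators, they held 58.1 ± 13.2% of Spib, 33.0 ± 4.21% of Bcl11a and 22.6 ± 4.57% of Irf8. Genes used widely in the tissue were held in small part: Tlr7 at 5.25 ± 1.83%, Irf7 at 2.40 ± 0.338%, Cd47 at 1.78 ± 0.433% and Tgfb1 at 1.10 ± 0.295%.

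**Figure D3:**
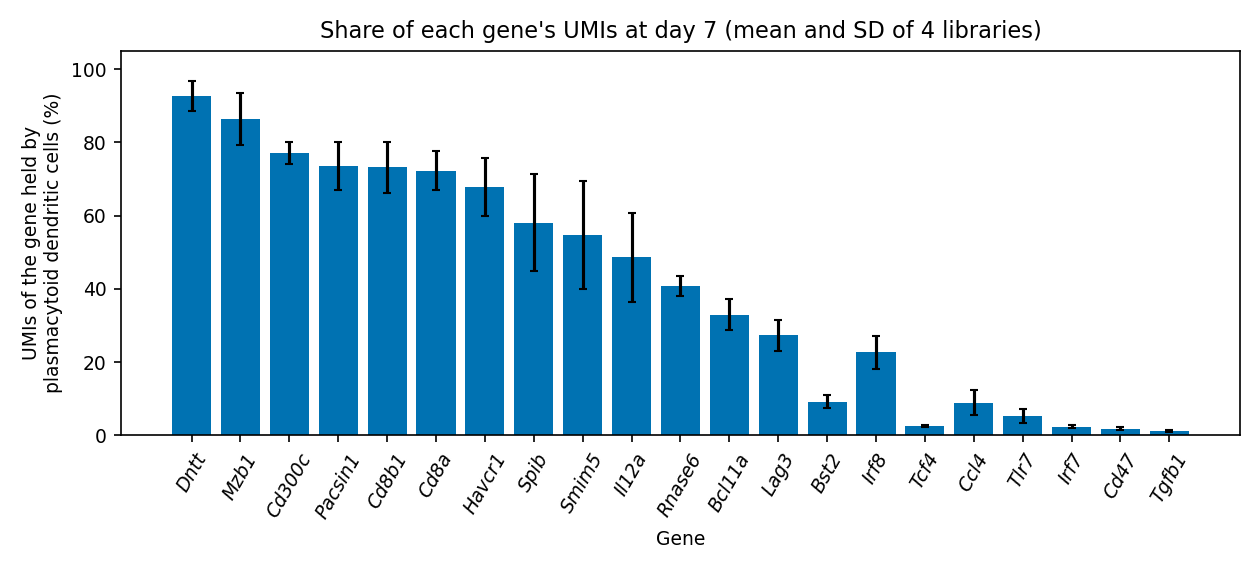
Percentage of each gene's UMIs in the day 7 libraries that lay in plasmacytoid dendritic cells, as mean (bar) and SD (whisker) of 4 libraries, for 21 genes. Dntt and Mzb1 lay mostly in these cells, and Tgfb1 at 1.10%.

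Set against conventional dendritic cells of the same 7 libraries, edgeR's quasi-likelihood test called 1946 of 4437 genes (43.9%), of which 945 (21.3%) were higher and 1001 (22.6%) lower in plasmacytoid cells. The gates chose the cells by their own transcripts, so these counts, and those of gene lists between the types, are descriptions to be set beside the 21.3% and 22.6% of all genes, and the genes are given as levels with the fitted log2 fold change and its SE. Of the transcription factors, Tcf4 was at 899 ± 70.3 CPM in plasmacytoid cells and 100 ± 15 in conventional ones (SD, n = 7; log2 2.93 ± 0.12). Irf8 was at 3260 ± 339 and 527 ± 119 (2.40 ± 0.10), Runx2 at 374 ± 88.6 and 18.2 ± 7.57 (4.05 ± 0.19), and Spib at 255 ± 86.4 and 14.6 ± 10.8 (3.82 ± 0.32). In the other direction, Id2 was at 32.8 ± 22.5 and 730 ± 106 (−4.71 ± 0.28) and Batf3 at 2.78 ± 5.37 and 103 ± 23.2 (−4.66 ± 0.42). Of 14 tested factors 9 were called higher and 3 lower, with a median log2 of 1.17 beside 0.01 over all genes.

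All 22 surface and lineage genes on the list were higher in plasmacytoid cells (median log2 4.22). Bst2 was at 3492 ± 247 and 221 ± 38.5 CPM (3.75 ± 0.10), and Plac8 at 4157 ± 414 and 553 ± 135 (2.70 ± 0.14). Cd8b1, Mzb1, Dntt and Klk1b27 had no UMI in the conventional dendritic cells. Against a floor of 3 counts over that group (0.659 CPM) they were at least 613-, 421-, 420- and 212-fold higher, and Klk1b27 shares its sequence with Klk1, a gene of the rule. D13Ertd608e followed at 338 ± 96.7 and 0.364 ± 0.623 CPM. Genes with no UMI in plasmacytoid cells were the lectin gene Klrb1b (145 ± 31.1 CPM in conventional cells, at least 45.6-fold lower), the chemokine Ccl17 (at least 29.5-fold), the fatty acid receptor Ffar2 (at least 28.1-fold), Plet1 (at least 20.7-fold) and Gcsam (at least 11.9-fold).

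Genes of antigen presentation were all lower in plasmacytoid cells (16 of 16 tested, median log2 −2.92), although 98.4% of plasmacytoid cells had a UMI of Cd74 and 86.1% one of H2-Ab1. Cd74, the invariant chain of MHC class II, was at 11266 ± 2288 CPM in plasmacytoid and 39645 ± 3031 in conventional cells (−2.09 ± 0.09), and H2-Ab1 at 2743 ± 741 and 15962 ± 1204 (−2.82 ± 0.12). The costimulatory gene Cd86 was at 14.7 ± 18.7 and 211 ± 37.7 (−3.99 ± 0.32), and Cd40 at 5.97 ± 12.2 and 100 ± 31.6 (−4.23 ± 0.45).

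Transcripts of interferon were not found. Of 14 tested genes on the list of endosomal sensing, which also holds adaptors, regulators and other receptors, 7 were called higher than in conventional cells and 5 lower (median log2 0.25). Tlr7, the endosomal receptor for single-stranded RNA, was at 88.2 ± 21.2 and 1.66 ± 1.90 CPM (5.20 ± 0.44), its chaperone Unc93b1 at 855 ± 115 and 318 ± 20.8 (1.16 ± 0.10), and Irf7, the factor that drives interferon genes, at 225 ± 101 and 70.5 ± 31.1 (1.45 ± 0.25). On the lower side were 2 list members that are not endosomal sensors of nucleic acids, Plscr1, a scramblase, at 17.3 ± 18.8 and 192 ± 39.2 (−3.80 ± 0.31) and Tlr2, a receptor for bacterial lipoproteins, at 18.2 ± 8.50 and 56.9 ± 21.8 (−1.80 ± 0.35). Tlr9, the receptor for DNA, had 0 UMIs in plasmacytoid cells of all libraries and Tlr8 had 0, where Tlr7 had 102. None of 20 type I and III interferon genes had a UMI among the 1314393 UMIs of the 229 cells, which allows up to 2.28 CPM for each gene and up to 1.31% of the cells with a UMI. In all cells of days 3, 7 and p7N3 together these genes had 74 UMIs, of which 13 were of Ifnb1. The assay counts transcript ends at the 3′ side, and short-lived or poorly captured transcripts may be missed at this depth, which was not tested. Of interferon-stimulated genes, 5 of 14 tested were higher and 4 lower than in conventional cells (median log2 −0.20), among them Ly6e at 2523 ± 423 and 434 ± 73.1 CPM (2.31 ± 0.11) and Ifitm3 at 370 ± 139 and 2393 ± 324 (−2.89 ± 0.18).

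Of 9 tested cytokine and chemokine genes 3 were called higher in plasmacytoid cells and 4 lower (median log2 −0.74). Il12a, the p35 chain of interleukin 12, was at 58.2 ± 19.6 CPM in plasmacytoid and 1.42 ± 1.63 in conventional cells (4.76 ± 0.47), while Il12b, the p40 chain, had no UMI in plasmacytoid cells and was at 37.1 ± 39.7 in conventional ones. The chemokine Ccl4 was at 1870 ± 768 and 356 ± 177 (2.17 ± 0.28), Ccl5 at 23.2 ± 52.1 and 910 ± 430 (−5.40 ± 0.42), and Il1b at 165 ± 194 and 1840 ± 251 (−3.87 ± 0.40). Of the migration genes 6 of 12 tested were higher and 3 lower, with the lipid receptor S1pr4 at 110 ± 46.9 and 6.93 ± 4.09 (3.64 ± 0.35) and the chemokine receptor Cxcr3 at 80.1 ± 24.2 and 15.6 ± 6.01 (2.15 ± 0.28). Of the inhibitory receptors, the collagen receptor Lair1 was at 570 ± 81.6 and 14.8 ± 7.24 (4.90 ± 0.23), and 4 of 11 were higher and 5 lower. In the secretory pathway 14 of 19 genes were called higher, beside 21.3% of all genes, and 1 lower (median log2 0.95 beside 0.01), with Xbp1, a factor of secretory cells, at 442 ± 138 and 96.7 ± 16.2 (1.91 ± 0.16).

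Of the genes that p7N3 and the study concern, Cd47 itself was at 1353 ± 282 CPM in plasmacytoid and 629 ± 72.3 in conventional dendritic cells (0.84 ± 0.11). Tgfb1 was at 289 ± 75.1 and 180 ± 14.3 (0.39 ± 0.13), its receptor Tgfbr1 at 83.0 ± 52.5 and 13.3 ± 4.24 (2.21 ± 0.28) and the integrin gene Itgb3 at 34.9 ± 18.0 and 2.52 ± 2.32 (3.33 ± 0.65). Of this list 4 of 9 tested were called higher and none lower, beside 21.3% and 22.6% of all genes. Immediate early genes, which tissue digestion can raise, were lower in 11 of 17 and higher in none (median log2 −1.02), and cell cycle genes were lower in 5 of 6. Growth and survival genes were lower in 5 of 9 and higher in 2, and oxidative phosphorylation genes were lower in 3 of 18, a smaller share than the 22.6% of all genes, and higher in none.

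The effect of p7N3 on the expression of plasmacytoid cells was tested in replicates 1 to 3 with p7N3 (12, 20 and 10 cells) against replicates 1 to 4 of day 7 (30, 43, 47 and 19 cells). None of 1824 genes passed an adjusted p of 0.05 in edgeR's quasi-likelihood test (0.0%), with 123 at an unadjusted p under 0.05, and DESeq2 called 1. The CPM of the groups did not overlap for 129 genes (7.07%). Of the identity genes, Tcf4, Irf8 and Bst2 had close levels. All 8 tested transcription factors had a log2 difference above 0 (median 0.32), and Runx2 is given below. Tcf4 was at 951, 816, 838 and 919 CPM at day 7 and 994, 831 and 945 with p7N3 (log2 0.06 ± 0.15), Irf8 at 3103, 3714, 2689 and 3424 and at 3516, 3066 and 3309 (0.02 ± 0.13), and Bst2 at 3654, 3480, 3339 and 3537 and at 3934, 3292 and 3210 (−0.01 ± 0.11). For all 3 genes the groups overlapped, and the differences were within the spread between libraries.

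Genes without overlap that had the largest differences are given as values, since none passed the test (edgeR adjusted p = 0.655 for each). Cd63, a tetraspanin of late endosomes (chr10:128900989-128912822), was at 168, 314, 411 and 641 CPM at day 7 and 28.8, 97.2 and 74.6 with p7N3 (−2.43 ± 0.53). Every p7N3 library lay below every one of day 7, in a gene that the other cells of the same libraries held at 1665 to 2194 CPM. The vesicle gene Bet1 was at 95.4 to 112 CPM at day 7 and 0 to 64.8 with p7N3 (−1.56 ± 0.54), Stra13 at 91.9 to 173 and 28.8 to 64.8 (−1.37 ± 0.42), Them6 at 103 to 155 and 32.4 to 99.5 (−1.20 ± 0.41) and Ccni at 81.1 to 139 and 24.9 to 64.8 (−1.19 ± 0.41). The p7N3 values of these 5 genes rest on 1 to 9 UMIs per library, and on none in the library where Bet1 was at 0. Cd63 was called in 4 of 16 alternatives, by DESeq2 (adjusted p = 0.0343) and by edgeR with no filter on low counts (adjusted p = 6.1e-11), with the replicate number as a block (adjusted p = 0.0423) and without day 7 replicate 1 (adjusted p = 0.0270). It was not called in 12, and its log2 difference was 0.54 where the p7N3 replicate 4 library was let in.

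In the other direction, Fcgrt, the neonatal Fc receptor (chr7:45092990-45103851), was at 189, 89.1, 165 and 156 CPM at day 7 and 216, 443 and 323 with p7N3 (1.16 ± 0.32). All p7N3 libraries were the higher ones, on 13 to 41 UMIs each. Fam107b (1.11 ± 0.32), Spag7 (1.07 ± 0.30), the sterol synthesis gene Idi1 (1.03 ± 0.38) and Bin2 (0.96 ± 0.36) followed, none past the test. In the other cells Bin2 was also higher without overlap, at 17.5 to 33.9 CPM at day 7 and 35.9 to 37.9 with p7N3. Fcgrt, Fam107b, Spag7 and Idi1 overlapped there.

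Cd47, whose protein the peptide is meant to engage (chr16:49800533-49915010), was at 1211, 1107, 1152 and 1118 CPM in plasmacytoid cells of day 7 and at 1470, 1846 and 1567 with p7N3. The groups did not overlap, and the log2 difference of 0.50 ± 0.14 did not pass the adjustment over all genes (edgeR adjusted p = 0.655). In the other cells Cd47 was at 297 to 331 CPM at day 7 and 322 to 355 with p7N3. Ly6c2 was at 1216, 1154, 1686 and 1231 CPM and at 2349, 2191 and 1692 with p7N3 (0.65 ± 0.17, edgeR adjusted p = 0.655), again without overlap. In the other cells Ly6c2 also did not overlap, at 17.0 to 33.0 CPM at day 7 and 37.2 to 53.2 with p7N3. Lag3 was at 400 to 460 CPM and at 497 to 850 with p7N3 (0.59 ± 0.20, edgeR adjusted p = 0.655). Runx2 was at 303 to 356 and at 356 to 547 CPM (0.43 ± 0.20), and the groups overlapped.

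**Figure D4:**
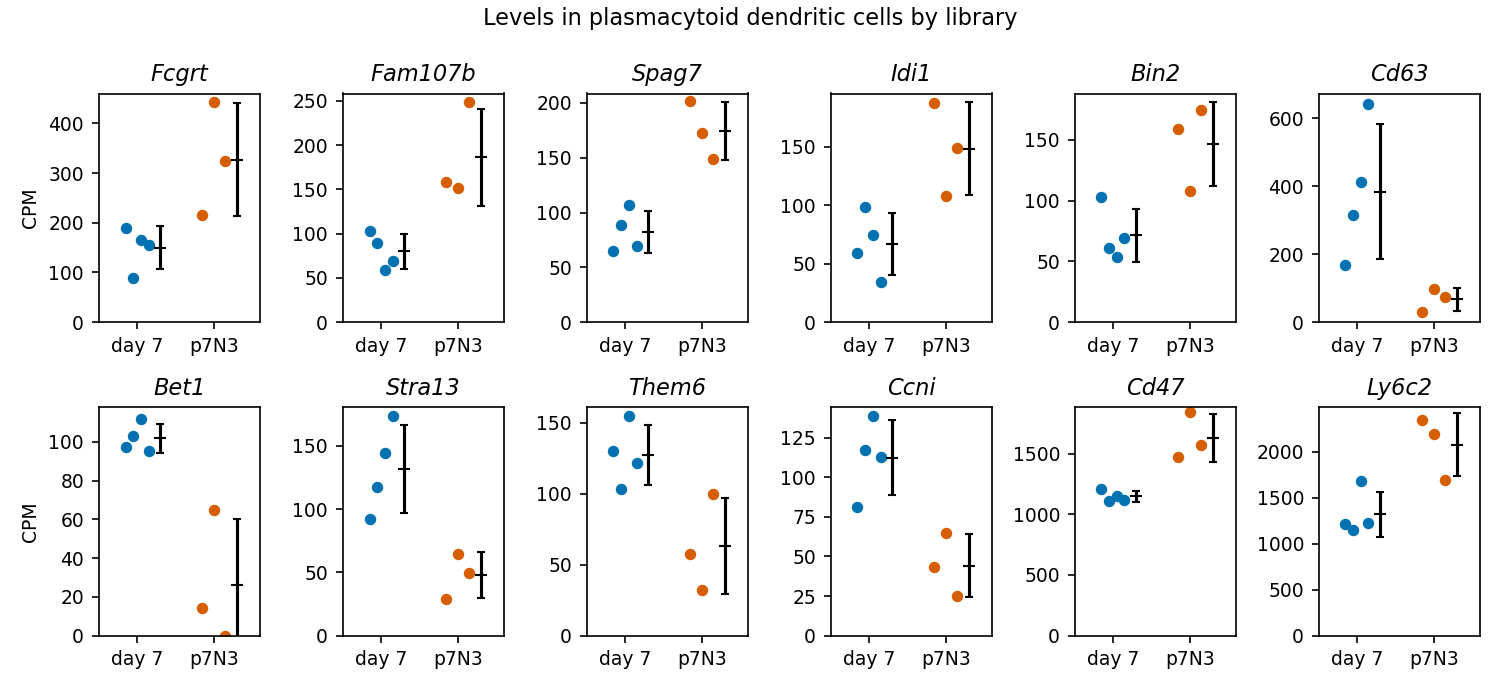
Levels in plasmacytoid dendritic cells of 12 genes by library, in CPM, at day 7 (4 libraries) and with p7N3 (3 libraries), with the mean and SD in black. The genes are the 5 largest differences in each direction without overlap, and Cd47 and Ly6c2. None passed an adjusted p of 0.05.

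No list had a called gene with p7N3. All 8 tested genes of MHC class II and costimulation had a log2 difference above 0 (median 0.42 beside 0.01 over all 1824 genes), with Cd74 at 8584, 13038, 10376 and 7975 CPM at day 7 and at 12566, 13688 and 12639 with p7N3 (0.37 ± 0.15, edgeR adjusted p = 0.704), which overlapped. The 8 tested transcription factors were also above 0 (median 0.32), and the 21 surface and lineage genes were 9 above and 12 below (median −0.03). The endosomal sensing genes had a median of 0.11 (8 tested), interferon-stimulated genes −0.02 (5), the secretory pathway −0.04 (18), migration genes 0.10 (9), inhibitory receptors 0.08 (6), growth and survival genes 0.25 (5), CD47, SIRP alpha and TGF beta genes 0.30 (5), cytokines and chemokines 0.23 (3), immediate early genes 0.20 (14), cell cycle genes 0.18 (3) and oxidative phosphorylation genes −0.09 (18). Members that passed the filter on low counts are only part of each list.

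Markers of other cells moved with these libraries. The 10 macrophage genes summed to 5130, 1881, 11757 and 841 CPM in plasmacytoid cells at day 7 and to 1138, 1144 and 1393 with p7N3, led by Apoe and Lyz2, with no gene of the 10 at 0. The 8 stromal genes summed to 1978, 6111, 7282 and 9908 CPM at day 7 and to 1383, 3789 and 1393 with p7N3, led by Col1a1 at day 7, and Pdgfra was at 0 by the rule. Neutrophil genes summed to 80.0 to 910 CPM and 199 to 3109 CPM, with Ly6g, Mmp8 and Camp at 0, and erythrocyte genes to 208 to 1918 and 115 to 224 CPM. The median log2 differences of tested markers were −2.41 for macrophages (4), −1.15 for stromal cells (6), 1.67 for neutrophils (2), 0.02 for monocytes (4), −0.06 for endothelial cells (2) and 0.39 for conventional dendritic cells (3). Their part in the differences was not tested.

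Whether p7N3 acted otherwise in plasmacytoid than in conventional dendritic cells was tested as an interaction over the same 7 libraries. None of 4437 genes passed (0.0%), with 196 at an unadjusted p under 0.05, and DESeq2 called 0. The named genes with the largest positive difference were Ifi205, Tmem163, Ebi3, Lpcat2 and Sppl3. Ifi205, an interferon-inducible gene, was at 45.4 ± 3.78 CPM with p7N3 and 4.33 ± 8.67 at day 7 in plasmacytoid cells, and at 225 ± 71.8 and 206 ± 48.7 in conventional ones (edgeR adjusted p = 0.924). The largest negative differences were those of Pes1, Lasp1, Hba-a2, Tpm2 and Ptn, which were at 0 to 12.0 CPM in plasmacytoid cells with p7N3 and at 30.3 to 143 at day 7, with edgeR adjusted p of 0.729 to 1.000. Hba-a2 is a globin gene, of the erythrocyte markers given above.

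Between day 3 (replicates 1 and 2, 12 and 18 cells) and day 7, which serves here as the reference as it does for p7N3, 58 of 2887 genes were called by edgeR (2.01%), 44 higher at day 3 (1.52%) and 14 lower (0.485%). MHC class II genes were lower together: 4 of the 8 tested antigen presentation genes were called lower at day 3, none higher, and the median log2 was −0.91 beside 0.00 over all genes. H2-Ab1 was at 878 and 982 CPM at day 3 and 1860, 3241, 2673 and 1898 at day 7 (−1.35 ± 0.23, edgeR adjusted p = 0.0125). H2-Aa was at 1167 and 1159 CPM and at 2130, 3475, 2513 and 2306 (−1.14 ± 0.19, edgeR adjusted p = 0.0119). The groups did not overlap for these genes, nor for H2-Eb1 at 429 and 413 CPM against 815 to 1318, nor for Cd74 at 5249 and 4980 CPM against 7975 to 13038 (−1.18 ± 0.22 and −0.94 ± 0.18, both called). In the other cells of the libraries H2-Ab1 was at 1215 and 1458 CPM at day 3 and 1260 to 2224 at day 7, which overlapped.

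Of the genes that mark the type, Runx2, Lag3 and Rnase6 were called lower at day 3. Runx2, a factor known in bone that is also part of the plasmacytoid programme, was at 160 and 129 CPM at day 3 and 303, 356, 320 and 303 at day 7 (−1.14 ± 0.24, edgeR adjusted p = 0.0353). Its call was lost in 6 of 17 alternatives, among them DESeq2 (adjusted p = 0.124), edgeR with the replicate number as a block (adjusted p = 0.0566) and each fit without day 3 replicate 1 or 2, or day 7 replicate 2 or 3 (edgeR adjusted p of 0.0528 to 0.510), with the direction kept. Lag3 was at 210 and 183 CPM and at 400, 460, 427 and 442 (−1.12 ± 0.21, edgeR adjusted p = 0.0207), lost in 4 of 17 alternatives. Rnase6, an antimicrobial ribonuclease, was at 459 and 379 CPM and at 876, 961, 822 and 980 (−1.10 ± 0.18, edgeR adjusted p = 0.00918), lost in 3 of 17. For all 3 every day 3 library lay below every day 7 library. The other cells of the libraries held less of each, and there Runx2 was also lower at day 3 without overlap. It was at 10.6 and 7.75 CPM at day 3 and 19.4 to 26.1 at day 7. Lag3 overlapped there, at 3.33 and 5.10 CPM and at 4.46 to 6.92. Rnase6 had the opposite order there, at 11.6 and 7.96 CPM and at 5.27 to 7.11. Irf8 was at 2168 ± 392 CPM at day 3 (n = 2) and 3232 ± 440 at day 7 (n = 4; −0.55 ± 0.15, edgeR adjusted p = 0.112), and Tcf4 at 757 ± 69.2 and 881 ± 64.5. Of 22 surface and lineage genes 2 were called lower and none higher (median log2 −0.29), and of the 11 transcription factors Id3 was called higher and Runx2 lower.

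Genes higher at day 3 were in the main also higher in the other cells of the libraries. Retnlg, a neutrophil gene, had 14 and 26 UMIs (140 and 176 CPM) at day 3 and none in the 4 libraries of day 7, at least 37.7-fold higher against a floor of 3 counts over day 7. The other cells held it at 204 and 278 CPM at day 3 and 1.21 to 3.87 at day 7. Wfdc17 was at 1227 and 1545 CPM at day 3 and 227, 65.7, 181 and 95.4 at day 7 (3.29 ± 0.34, edgeR adjusted p = 0.000518), and the chemokine Ccl6 (4.18 ± 0.40), Ifitm1 (3.88 ± 0.41) and the lysozyme gene Lyz1 (3.68 ± 0.84), a near-identical copy of Lyz2, were also called. Wfdc17 and Ccl6 kept their calls in every alternative that gave a value (17 and 16), while those of Retnlg, Ifitm1 and Lyz1 were lost in 1 of 13, 2 of 16 and 4 of 11. Of list genes, Id3 (log2 2.41 ± 0.39), Tlr2 (2.53 ± 0.56), Csf1r (2.60 ± 0.53) and the early gene Ier3 (3.17 ± 0.47) were called higher at day 3 than at day 7. These calls were lost in 3 of 16, 4 of 14, 3 of 15 and 2 of 16 alternatives in the same order (edgeR or DESeq2 adjusted p up to 0.163, 0.636, 0.656 and 0.163), with the direction kept. Id3 was at 178 and 168 CPM in the other cells at day 3 and at 194 to 230 at day 7, the opposite order. Of the 44 genes called higher, 42 (95.5%) were also higher without overlap in the other cells of the same libraries, beside 54.0% of all 1442 tested genes with a positive difference. Of the 14 called lower, 6 (42.9%) were also lower without overlap in other cells, beside 35.8% of 1445. The lower calls of largest size were stromal transcripts, Fstl1 (−3.20 ± 0.73), Igfbp7 (−3.08 ± 0.65), Col1a1 (−3.05 ± 0.67) and Postn (−2.43 ± 0.54), followed by the oligosaccharyltransferase subunit Magt1 (−1.98 ± 0.44), whose call was lost in 8 of 16 alternatives (edgeR or DESeq2 adjusted p up to 0.375). The calls of Fstl1, Igfbp7, Col1a1 and Postn were lost in 4 of 15, 3 of 16, 5 of 17 and 6 of 17 alternatives (adjusted p up to 0.430, 0.510, 0.423 and 0.430). In the other cells Col1a1 was at 2791 and 3835 CPM at day 3 and at 10223 to 14482 at day 7.

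The marker sums followed the same course. In plasmacytoid cells the 8 neutrophil genes summed to 1427 and 1396 CPM at day 3, led by S100a9, and to 80.0 to 910 at day 7, the 10 macrophage genes to 7653 and 14019, led by Lyz2, and to 841 to 11757, and the 8 stromal genes to 1307 and 1585 and to 1978 to 9908. Their part in the result was not tested. With 1 library at day 3, where the spread came from day 7 alone and the lone library is assumed to vary like those, no lower call was made: 13 genes were called without day 3 replicate 1 and 4 without day 3 replicate 2, all higher at day 3. The log2 values were then −1.27 and −1.48 for H2-Ab1, −1.29 and −1.03 for Runx2, and −1.21 and −1.06 for Lag3 (edgeR adjusted p of 0.139 to 0.510). Without the members that had 20 UMIs of another type's gene, an alternative chosen after seeing the data, the log2 values were −1.40 for H2-Ab1, −1.04 for Runx2, −1.21 for Lag3 and −1.11 for Rnase6 (edgeR adjusted p of 0.00185, 0.0328, 0.00616 and 0.00187), and that of Col1a1 was −0.90 (edgeR adjusted p = 0.111).

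**Figure D5:**
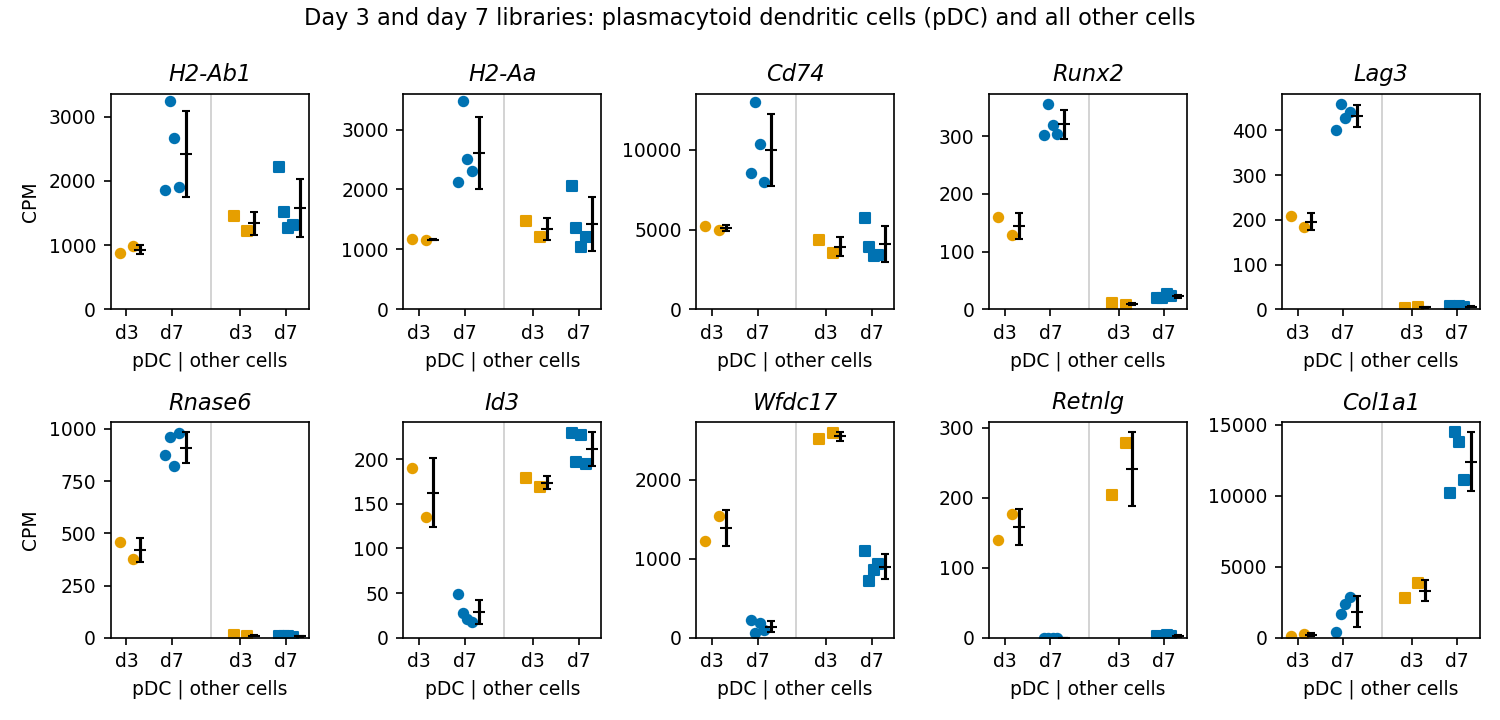
Levels of 10 genes in CPM by library at day 3 (d3, 2 libraries) and day 7 (d7, 4 libraries), in plasmacytoid dendritic cells (circles) and in all other cells of the same libraries (squares), with the mean and SD in black. Runx2, Lag3 and Rnase6 were low in other cells. There Runx2 was also lower at day 3 without overlap, Rnase6 was higher at day 3, and Lag3 overlapped. Wfdc17, Retnlg and Col1a1 differed in other cells too.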

How the data were processed

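The authors prepared 3′ droplet libraries of the tenotomy site, aligned reads to mm10 with Cell Ranger and deposited raw UMI counts, not normalized, as matrices of 27998 genes by barcode. The matrix of day 0 replicate 1 is unfiltered (737280 barcodes, beside 614 to 3786 in the others). The labels of the first deposit name GRCh38, but the gene identifiers are those of mouse. The cell limits (500 genes, 25% mitochondrial UMIs) are those of the study, and no doublets were removed. UMIs were summed per library over the cells of a gate, with at least 10 cells. CPM are UMIs per 1000000 UMIs of those cells. Fold changes are from edgeR 4.0.16 in R 4.3.3 (quasi-likelihood test, TMM factors, filterByExpr, Benjamini-Hochberg over all genes tested, threshold 0.05), with the library as a block between cell types. DESeq2 1.42.0 was an alternative. The scripts were tested on simulated data. Shares were compared by exact permutation of libraries with SciPy 1.17.1. Named genes were, per comparison, the 5 largest differences in each direction with no overlap between groups and a mean of at least 20 CPM (called genes first), the 5 genes whose detection most exceeded that in other gates, and of each of 25 lists (325 genes) up to 4 called and the 2 most abundant members. Some genes that the rule names are not reported here. Lag3 and Runx2 with p7N3 were added after their values were seen. Members and lists were chosen with earlier results of these data known. Gene positions came from GENCODE vM21 (GRCm38). The study's other assays were not used here.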

Additional observations from a re-analysis of the deposited data

Results flagged for a closer look

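Of 37 groups of 4 libraries searched for a library far from the others, 1 held one. The rate of about 1 in 20 given by chance does not hold for it, since the other 3 libraries were tied at 0. Any value above 0 would have been flagged there. The share of plasmacytoid dendritic cells at day 21 was 0.221% in replicate 2 and 0 in the other 3 libraries. It rests on 2 cells, 1 with 20 UMIs of Siglech and all 4 second markers and 1 with 4 UMIs of Siglech and Ccr9 alone.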

How the results depend on the processing

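The share with p7N3 stayed below that of day 7 under every alternative run (exact permutation p = 0.125 with the replicate number as a block), with differences of −0.729 to −0.520 percentage points when a library was left out. The other share comparisons kept their direction when a library was left out: day 7 minus day 0 was 0.831 to 1.04, day 3 minus day 0 0.418 to 0.633, day 3 minus day 7 −0.512 to −0.288, day 21 minus day 7 −1.08 to −0.870 and day 21 minus day 0 −0.0936 to −0.00325. With other choices, 2 comparisons reversed. Day 21 minus day 0 was 0.0113 with Siglech at least 3. Day 3 minus day 0 was −0.0438 without cells with 2 UMIs of another type's gene, which left 0 cells at day 3, and it was −1.43 per 100 conventional dendritic cells and −0.354 per 100 macrophages, denominators chosen after seeing the data.

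For p7N3, 65 genes were called with no filter on low counts (12 higher, 53 lower), 1 by DESeq2, 3 with the replicate number as a block (all lower) and 0 to 6 with a library left out (6 without day 7 replicate 1). Cd63 reversed to 0.54 with libraries of at least 5 cells. For day 3 the main count of 58 became 218 with no filter, 94 with the replicate number as a block, 168 with Siglech at least 1, and 4 to 92 with a library left out (34 without day 7 replicate 2, 92 without day 7 replicate 1). Causes were not tested. Of replicates 1 to 3, same-numbered libraries of p7N3 and day 7 did not deviate together (r = −0.07, −0.04 and 0.07). Libraries with unlike numbers, day 7 replicate 4 included, gave r of −0.13 to 0.09. These values show no pairing by number, but sums over so few cells are too noisy to exclude one. No such value was taken for day 3. Counts between cell types ran from 1652 to 2086, and the interaction called 0 throughout. Fits without cells with 2 UMIs of another type's gene, and any fit of day 21, had too few cells. Depth limits the expression results: plasmacytoid cells gave 69396 to 213221 UMIs in the libraries of at least 12 cells and 40193 in that of 10, so that 1 UMI there is 24.9 CPM.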
